A study of Mus musculus with 12 samples.

Results

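The genes described here are the proteasome subunits and regulators, taken as every row of the deposited expression table whose symbol starts with Psma, Psmb, Psmc, Psmd, Psme, Psmf or Psmg followed by a digit. There were 53 such rows among 38339 genes. Of these, 48 have a role in the proteasome and 3 are pseudogenes, and the symbol rule also took in Psmc3ip, a meiotic recombination factor, and Psme2b, an intronless copy of Psme2. The RNA was that of T-ALL (T-lineage acute lymphoblastic leukemia, in which immature T cells grow as a cancer) of the mouse, on a C57BL/6 x 129Sv/Jae F1 strain background, with primary leukemias transplanted into recipients. When a recipient was moribund it was given vehicle (VEH) or dexamethasone (DEX), a synthetic glucocorticoid, and its bone marrow was taken 4 hours later. Of each of 6 leukemias there was 1 VEH and 1 DEX library, each from 1 mouse, and the leukemia is the replicate (n = 6). Leukemia 1 is 73A-46B, leukemia 2 is 73M-19A, leukemia 3 is 78A-143B, leukemia 4 is 2M-127B, leukemia 5 is 20M-116B and leukemia 6 is JW-81-59B. The labels give no genotype, driver mutation, dose or animal age, and name no resistant group among these libraries.

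The 26S proteasome degrades proteins that carry ubiquitin chains. Its 20S core is a barrel of alpha and beta rings, with the catalytic sites on beta subunits, and its 19S cap holds a base of ATPases that unfold substrates and a lid that removes ubiquitin. In lymphoid cells the catalytic subunits Psmb5, Psmb6 and Psmb7 can be replaced by Psmb8, Psmb9 and Psmb10 to form the immunoproteasome, which makes peptides for MHC class I. Chaperones of the Psmg family assemble the core, and the PA28 complexes and PA200 are caps that work without the 19S particle.

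Values were FPKM, which are fragments scaled to gene length and to the mapped fragments of a library, and the table holds no counts. The library sums ran from 1466470 to 2019060 FPKM, with 11778 to 12970 genes at 1 FPKM or more. Depth was estimated from the commonest nonzero value, scaled by gene length, among sparse genes of 400 to 700 bases. That value was taken to be 1 fragment, with an assumed fragment length of 150 bases. The estimate was 12000000 to 36800000 fragments in 11 libraries and could not be resolved for the VEH library of leukemia 2. All 12 T-lineage markers (such as Cd3e, Lck and Bcl11b) reached 1 FPKM in at least 1 library, with a summed level of 1225 to 2047 FPKM in VEH and 1002 to 1790 in DEX. Markers of granulocytes, led by S100a8 and S100a9, summed to 2204 to 8552 FPKM in VEH and 1452 to 5010 in DEX and were lower with DEX in 5 of 6 leukemias, so the marrow libraries held transcripts of both. In bulk RNA, fewer cells of a type and less RNA per cell cannot be told apart.

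The proteasome was abundantly transcribed, and few of its genes changed after 4 hours of DEX. Of the 53 genes, 48 passed the filter on low values (at least 1 FPKM in at least 6 of 12 libraries), as did 12358 genes in all. In limma's paired fit, 0 of the 48 rose and 4 (8.33%) fell at an adjusted p under 0.05. Over all genes tested, 4.27% rose and 9.28% fell, so the share of proteasome genes that fell was near that of the whole table. At an unadjusted p under 0.05, 4 of the 48 were higher and 7 lower. The share of all genes at that unadjusted threshold was not counted, so unadjusted counts here and below have no background to be read against. The 4 that fell at the adjusted threshold were Psme2 and Psme3 of the PA28 activators and Psmg1 and Psmg2 of the core assembly chaperones. Of all protein-coding FPKM, the 53 genes held 0.770 ± 0.0444% with VEH and 0.776 ± 0.0478% with DEX (SD, n = 6).

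The interval of the difference says how much change these data allow on the FPKM scale as deposited. The 95% interval lay within 0.5 log2 of 0 for 46 of the 48 genes (95.8%), against 69.9% of all genes tested. Psmc3ip and Psme2b were the other 2, so each of the 46 tested genes with a role in the proteasome had such an interval. The 2 shares were not matched for level, and the genes tested reached down to a mean of 0.48 FPKM in VEH. The median difference was 0.01 over the 48 genes and -0.05 over all genes. Rescaling each library to a fixed sum (TPM) moved both, to -0.12 and -0.16. In leukemias 2, 5 and 6 the library sum was higher with DEX (1910540, 1799770 and 2019060 FPKM) than with VEH (1507530, 1556030 and 1664240). In leukemias 1, 3 and 4 it was 1466470, 1725640 and 1675310 FPKM with DEX and 1485320, 1746850 and 1629320 with VEH. Only the DEX libraries of leukemias 2, 5 and 6 lack an index suffix in their descriptions. Whether the move with TPM reflects DEX or this library difference was not tested.

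**Figure D1:**
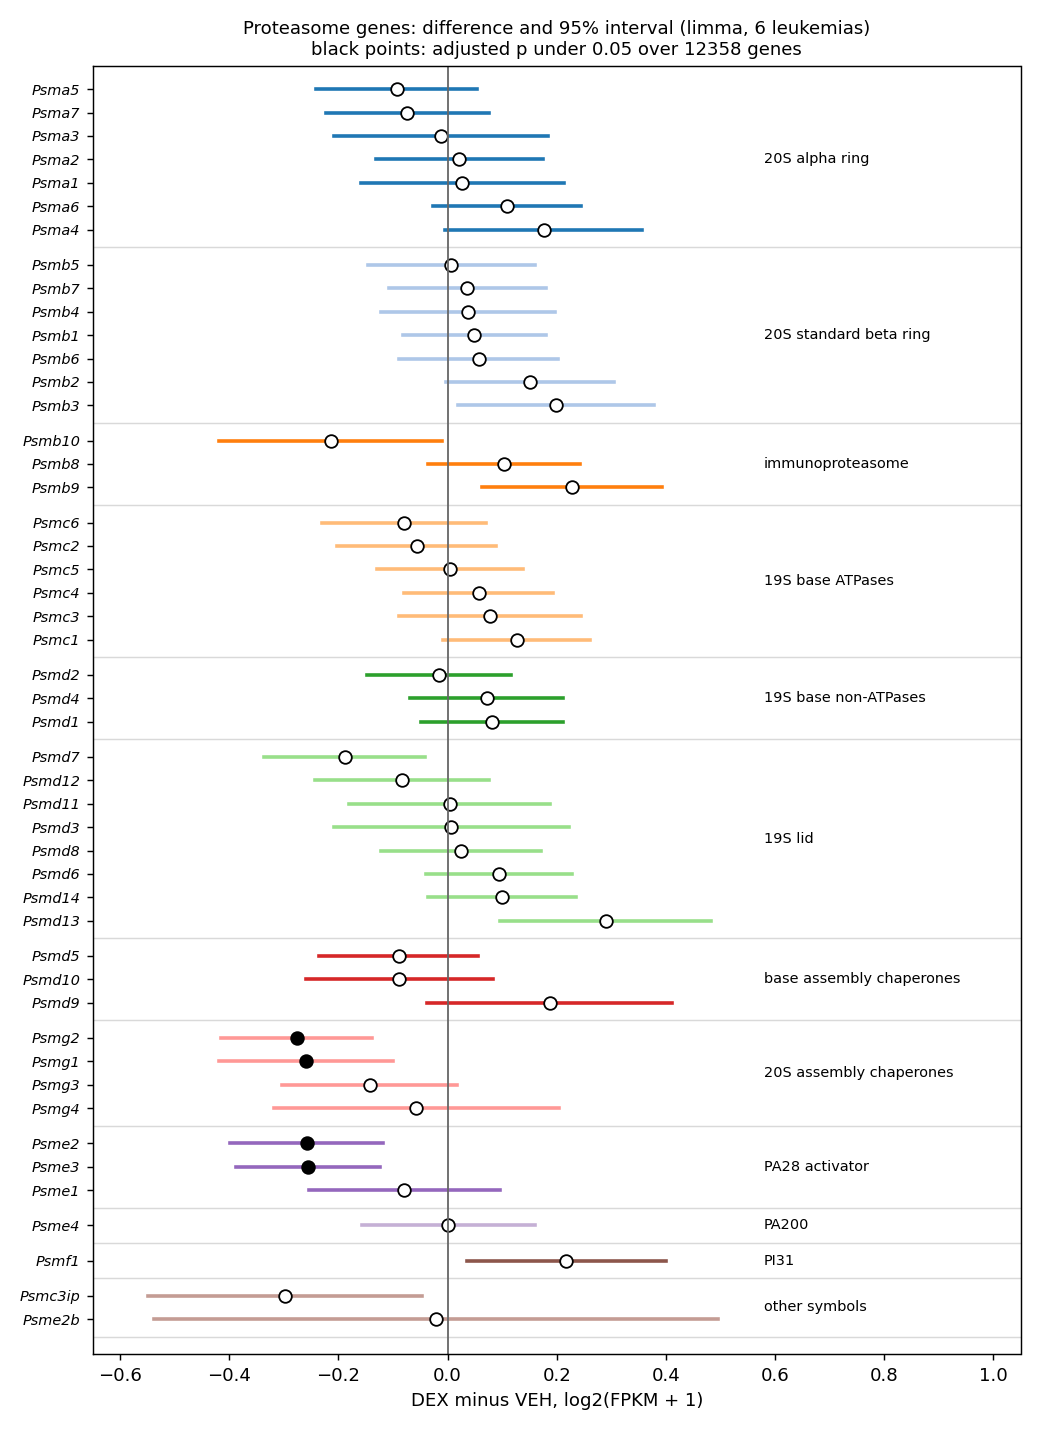
DEX minus VEH difference of log2(FPKM + 1) for the 48 tested genes, ordered within role groups; bars are 95% intervals from limma over 6 leukemias, and black points passed an adjusted p of 0.05. The 4 black points are Psme2, Psme3, Psmg1 and Psmg2, between -0.28 and -0.26, while the points of the core and cap lie on both sides of 0.

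Of the 14 standard subunits of the 20S core, 0 passed limma's test, and 1 (Psmb3, higher) had an unadjusted p under 0.05. In the alpha ring, which forms the gate to the barrel, the 7 differences ran from -0.09 (Psma5) to 0.18 (Psma4), with a median of 0.02. In the standard beta ring all 7 differences were above 0, from 0.01 (Psmb5) to 0.20 (Psmb3), with a median of 0.05, and rescaled to TPM the 2 medians were -0.12 and -0.089. Psma4 went from 121 ± 16.1 to 138 ± 25.2 FPKM (adjusted p = 0.176), and Psmb3 from 126.5 ± 25.9 to 144 ± 18.8 FPKM (SD, n = 6; adjusted p = 0.131). Both were higher with DEX in 5 of 6 leukemias. The gene least moved in each ring was Psma3, at -0.01 (adjusted p = 0.939), and Psmb5, at 0.01 (adjusted p = 0.956).

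The median of the 14 core genes differed in sign between leukemias. It was -0.15 in leukemia 1 and -0.03 in leukemia 5, and 0.15, 0.08, 0.14 and 0.10 in leukemias 2, 3, 4 and 6. The 17 genes of the 19S cap gave nearly the same series, with -0.11 and -0.02 in leukemias 1 and 5 and 0.15, 0.07, 0.13 and 0.07 in the others. Core and cap values come from the same 12 libraries, so the likeness of the 2 series is not independent.

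**Figure D2:**
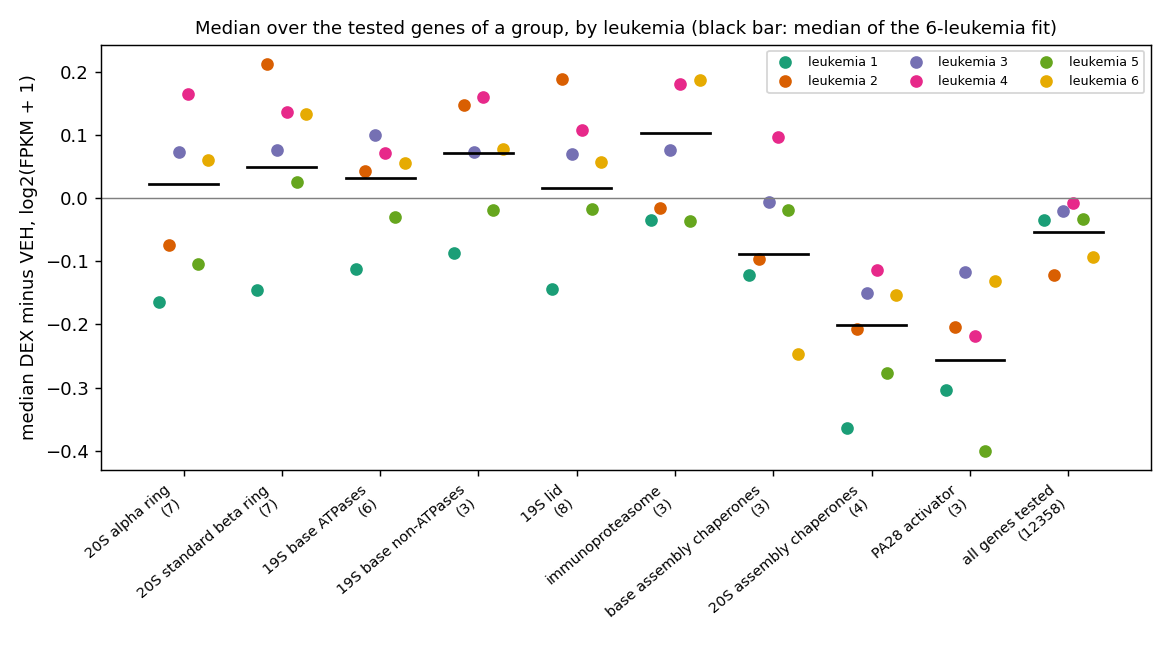
Median DEX minus VEH difference of log2(FPKM + 1) for each role group, with 1 point per leukemia and a black bar for the median of the fit over 6 leukemias; the number of tested genes is in brackets. The points of the core and cap groups lie on both sides of 0, and those of the core assembly chaperones and the PA28 activators lie below 0 in all 6 leukemias, as do those of all genes tested.

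Subunits of a standard core are built into the particle in equal numbers, although Psmb5, Psmb6 and Psmb7 can be replaced. FPKM is corrected for length, and in a library the highest of the 14 core genes was 2.27 to 3.19 times the lowest. This spread was not compared with that of genes outside the proteasome. Mean VEH levels ran from 67.6 FPKM for Psma5 to 178 FPKM for Psma2. In a library, the coefficient of variation (CV, the SD as a percentage of the mean) over the 14 core genes was 26.4 ± 1.96% in VEH and 27.6 ± 3.03% in DEX. The beta ring was the tighter of the 2 rings, at 17.2% in VEH and 18.5% in DEX, against 32.9% and 35.3% in the alpha ring. The lid was the most spread, at 42.3% and 45.3%. The median core gene stood at 117 ± 13.2 FPKM in VEH and 123 ± 14.7 in DEX, and the median cap gene at 64.4 ± 3.63 and 66.7 ± 2.25 FPKM (SD, n = 6).

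In the 19S base, 0 of the 6 ATPase genes and 0 of the 3 other subunits passed limma's test, and 0 had an unadjusted p under 0.05. The ATPase genes, whose products unfold substrates, had a median of 0.03 and ran from -0.08 (Psmc6) to 0.13 (Psmc1). Psmc1 stood at 78.5 ± 12.5 FPKM in VEH and 85.5 ± 11.3 in DEX (adjusted p = 0.191), and Psmc5 was the least moved, at 0.01 (adjusted p = 0.962). The scaffold subunits Psmd1 (0.08) and Psmd2 (-0.02) and the ubiquitin receptor Psmd4 (0.07) had a median of 0.07. Rescaled to TPM, the medians of the 2 base groups were -0.10 and -0.065.

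The lid held the widest differences of the cap, in opposite directions, and neither passed. Psmd13, a structural lid subunit (ENSMUSG00000025487, chromosome 7, 140881968 to 140898643 on GRCm38), had a lowest, median and highest level of 44.3, 51.1 and 60.4 FPKM in VEH and 53.8, 61.3 and 83.1 FPKM in DEX. It was higher with DEX in 6 of 6 leukemias and the groups overlapped. The difference was 0.29 ± 0.09 (SE; adjusted p = 0.0546), and leukemia 2 gave 0.72 against 0.08 to 0.29 in the other 5. Without leukemia 2 it was 0.20 (adjusted p = 0.0880). In limma over leukemias 1, 3 and 4 alone it was 0.16 (adjusted p = 0.291). Over leukemias 2, 5 and 6 alone it was 0.42 (adjusted p = 0.0960).

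Psmd7, the partner of the deubiquitinase subunit Psmd14, went the other way. Its levels were 31.4, 37.1 and 45.7 FPKM in VEH and 25.4, 33.9 and 38.3 FPKM in DEX (lowest, median and highest). All 6 leukemias were lower with DEX, by -0.05 to -0.37, and the groups overlapped. The fit gave -0.19 ± 0.07 (SE; adjusted p = 0.0878). Psmd14 itself stood at 0.10 (adjusted p = 0.293), the median of the 8 lid genes was 0.02 (-0.12 rescaled to TPM), and Psmd11 was the least moved, at 0.00 (adjusted p = 0.981).

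Across the 48 genes, 1 was higher in all 6 leukemias (Psmd13; 2.08%, against 5.97% of all genes tested). Lower in all 6 were 5 (10.4%, against 13.7% of all genes), namely Psmd7 and the 4 genes that fell. Neither share was above that of the whole table.

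The 4 genes that fell were 2 of the 3 PA28 genes and 2 of the 4 core assembly chaperones. Their share of the proteasome genes, 8.33%, was near the 9.28% of all genes tested that fell. Psme3 encodes PA28 gamma, the nuclear activator (ENSMUSG00000078652, chromosome 11, 101316213 to 101323537). Its lowest, median and highest levels were 57.7, 60.7 and 75.7 FPKM in VEH and 43.5, 52.9 and 61.1 FPKM in DEX. DEX was lower in 6 of 6 leukemias, with leukemia 1 the highest in both groups and leukemia 5 the lowest in both, so the groups overlapped although every pair went down. The difference was -0.26 ± 0.06 (SE), from -0.13 to -0.40 in single leukemias (adjusted p = 0.0231).

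Psme2 encodes PA28 beta, which forms with Psme1 (PA28 alpha) the interferon-inducible activator (Psme2: ENSMUSG00000079197, chromosome 14, 55587441 to 55591113). In VEH the lowest, median and highest levels were 102, 152 and 188 FPKM, and in DEX they were 84.1, 124 and 179 FPKM. All 6 pairs went down, from -0.07 in leukemia 3 to -0.46 in leukemia 5, over a spread between leukemias that was wider than the drop. The fit gave -0.26 ± 0.06 (SE; adjusted p = 0.0278). Its partner Psme1 stood at a mean of 159 (VEH, SD 37.5) and 150 FPKM (DEX, SD 34.3), lower in 4 of 6 leukemias, with a difference of -0.08 (95% interval -0.25 to 0.10; adjusted p = 0.521). Whether Psme1 and Psme2 differed from each other was not tested. Psme2b, on chromosome 11, had 0.13 to 7.70 FPKM and may share reads with Psme2.

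Psmg1 and Psmg2 encode the chaperone pair PAC1 and PAC2, on which the alpha ring is assembled. Psmg1 (ENSMUSG00000022913, chromosome 16, 95979933 to 95990960) had 24.1, 31.8 and 35.8 FPKM in VEH and 19.8, 28.0 and 29.6 FPKM in DEX (lowest, median and highest). Psmg2 (ENSMUSG00000024537, chromosome 18, 67641599 to 67654162) had 21.8, 27.1 and 28.5 FPKM in VEH and 17.8, 22.1 and 24.5 FPKM in DEX. Each was lower in 6 of 6 leukemias and lowest in leukemia 5 in both groups, and for each the groups overlapped. Psmg1 fell by 0.26 ± 0.07 on the log2 scale (SE; adjusted p = 0.0420) and Psmg2 by 0.28 ± 0.06 (adjusted p = 0.0208).

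The other chaperone pair did not pass. Psmg3 stood at -0.14 (adjusted p = 0.213; lower in 5 of 6 leukemias) and Psmg4 at -0.06 (adjusted p = 0.775), with single leukemias from -0.47 to 0.36 for Psmg4. The median of the 4 Psmg genes was -0.20, and of the 3 PA28 genes -0.26, each below 0 in 6 of 6 leukemias. The median of all genes tested, -0.05, was also below 0 in 6 of 6, at -0.01 to -0.12. Pomp, the maturation factor that completes the core and falls outside the symbol rule, stood at 112 ± 7.66 FPKM in VEH and 107 ± 13.4 in DEX (difference -0.07, adjusted p = 0.494). Chaperones of the 19S base were at -0.09 (Psmd5), -0.09 (Psmd10) and 0.19 (Psmd9), and 0 of 3 passed limma's test, with 0 at an unadjusted p under 0.05.

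The 4 falls kept their direction in all 18 alternatives, at -0.16 to -0.40, but the call was lost in 7 of them for Psmg2, 8 for Psme3, 11 for Psme2 and 14 for Psmg1. With median-of-ratios scaling 1 of the 4 passed, and without a filter on low values 2 passed. Without leukemia 1, 4 or 5, 0 of the 4 passed, and without leukemia 2 or 6, 2 passed. The descriptions of the DEX libraries of leukemias 2, 5 and 6 lack the index suffix that those of the other 9 libraries carry. The fit was therefore repeated with and without these 3 leukemias. In these 3, suffix and treatment cannot be told apart, so a term for the suffix gives the differences of leukemias 1, 3 and 4. Over leukemias 1, 3 and 4 and over leukemias 2, 5 and 6, Psme3 gave -0.27 and -0.25, Psme2 -0.19 and -0.33, Psmg1 -0.16 and -0.36, and Psmg2 -0.24 and -0.31. None passed in either set of leukemias or with a term for the suffix (adjusted p = 0.121 to 0.386 with the term), where fewer leukemias or degrees of freedom were left. The summed T-lineage markers were also lower with DEX, in 6 of 6 leukemias, where 3 markers fell by limma's test and 1, Cd8b1, rose. Summed markers of granulocytes, B cells and NK cells were lower in 5 of 6, of monocytes in 4, of erythroid cells in 3 and of dendritic cells in 2. The sum for stroma and vessels, lower in 6 of 6, was nearly all Pecam1 (mean 50.2 FPKM in VEH). Cdh5 of that list was higher in 6 of 6, at a mean of 0.08 FPKM in VEH. The part of these cells in the falls was not tested.

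**Figure D3:**
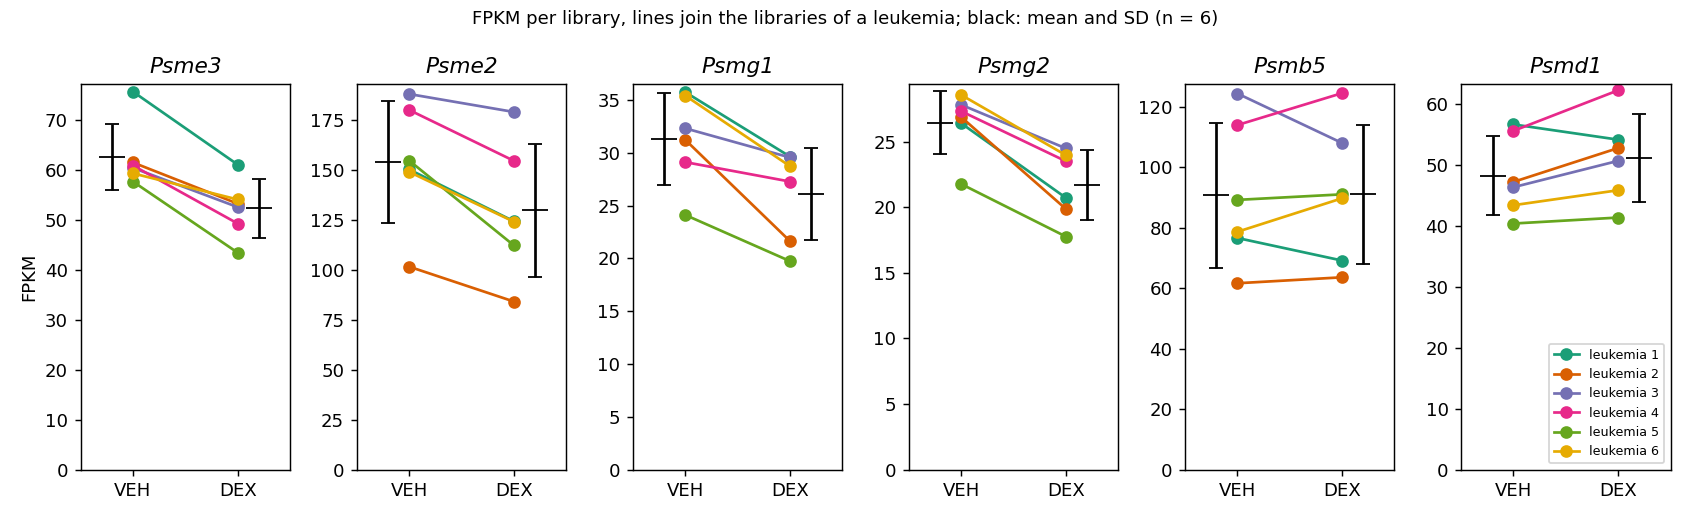
FPKM of the 4 genes that fell, beside the core subunit Psmb5 and the base subunit Psmd1, in each VEH and DEX library; lines join the libraries of a leukemia, and black bars are the mean and SD (n = 6). Every line slopes down for Psme3, Psme2, Psmg1 and Psmg2, and the lines of Psmb5 and Psmd1 go both ways.

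The sequence before the start of 3 of the 4 genes that fell (Psme2, Psme3 and Psmg1) is shown because these genes were lower in all 6 leukemias, and Psmb6 (0.06, adjusted p = 0.586) is shown beside them as a core subunit that holds a match to the motif of the factors Nfe2l1 and Nfe2l2. RefSeq promoters (build GRCm38.p6) were matched for 40 of the 48 genes with a role. Each sequence below is upstream of the RefSeq start, 5′ to 3′ on the strand of the gene, and capitals mark a motif match. The positions are chr14:55591114-55591251 (minus strand) for Psme2, chr11:101316063-101316212 (plus) for Psme3, chr16:95990961-95991110 (minus) for Psmg1 and chr11:70525207-70525356 (plus) for Psmb6.
Psme2: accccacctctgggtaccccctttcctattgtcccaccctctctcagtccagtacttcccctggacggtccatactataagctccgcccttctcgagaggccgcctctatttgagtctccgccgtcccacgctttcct
Psme3: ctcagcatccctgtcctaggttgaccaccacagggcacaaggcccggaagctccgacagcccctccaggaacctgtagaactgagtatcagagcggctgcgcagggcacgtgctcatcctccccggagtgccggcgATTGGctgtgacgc
Psmg1: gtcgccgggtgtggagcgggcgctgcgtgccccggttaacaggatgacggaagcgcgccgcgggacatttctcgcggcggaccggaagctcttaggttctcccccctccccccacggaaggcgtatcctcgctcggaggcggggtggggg
Psmb6: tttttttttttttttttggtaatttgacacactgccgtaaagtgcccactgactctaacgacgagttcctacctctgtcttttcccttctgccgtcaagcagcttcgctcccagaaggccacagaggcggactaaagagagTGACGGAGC

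The capitals in Psme3 are a CCAAT box read on the opposite strand, and those in Psmb6 are the core of the antioxidant response element (ARE), TGACNNNGC, directly before the start. Over 250 bases on both strands, the ARE core was in 5 of 40 proteasome promoters (12.5%; Psmb5, Psmb6, Psmc6, Psmd9 and Psmd12) and in 10.1% of 27025 promoters. The half-site of the glucocorticoid response element, AGAACA, was in 6 of 40 (15.0%, against 16.2%), among them Psmg1, where it lies farther upstream than the stretch printed. CCAAT was in 14 (35.0%, against 34.5%), and the interferon motifs GAAANNGAA and TTCNNNGAA in 3 (7.5%, against 7.16%) and 2 (5.0%, against 7.18%). The heat shock core TTCNNGAA was in 2 (5.0%, against 7.1%). The shares of the proteasome promoters were thus close to those of all promoters for each motif. A match is a string of letters and not a bound site.

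The inducible catalytic subunits were all transcribed, and the order of the 6 catalytic genes by mean level was the same in VEH and DEX. Psmb8 had the highest mean, at 194 ± 26.2 FPKM in VEH and 209 ± 33.4 in DEX. It was followed in VEH by Psmb6 (135 ± 17.2), Psmb7 (98.6 ± 7.51) and Psmb5 (90.7 ± 23.9), where Psmb7 and Psmb5 differed by less than their SD. Psmb9 (48.3 ± 9.05) and Psmb10 (47.5 ± 8.75) were lowest and likewise within their SD of each other. In DEX, Psmb9 stood at 56.1 ± 6.13 and Psmb10 at 41.1 ± 8.53 FPKM (SD, n = 6).

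Of the 3 immunoproteasome genes, 0 passed limma's test, 1 was higher and 1 lower at an unadjusted p under 0.05, and they did not share a direction. Psmb9 (chromosome 17, 34181987 to 34187764) was 36.5, 49.6 and 59.9 FPKM in VEH and 48.5, 55.0 and 66.8 FPKM in DEX (lowest, median and highest), and higher in 5 of 6 leukemias. Its difference was 0.23 ± 0.07 (SE; adjusted p = 0.0697). Without leukemia 2, the 1 leukemia in which it was not higher, it passed (0.28, adjusted p = 0.0498). Without leukemia 1, 3, 4, 5 or 6 it did not (adjusted p = 0.0932 to 0.195), and rescaled to TPM it was 0.090 (adjusted p = 0.497). Psmb8, on the same chromosome, stood at 0.10 (adjusted p = 0.293; higher in 4 of 6). Psmb10, on chromosome 8, was lower in 5 of 6 leukemias, at -0.21 ± 0.09 (adjusted p = 0.148), and passed when rescaled to TPM (-0.34, adjusted p = 0.0318). The median of the 3, 0.10, became -0.035 rescaled to TPM and -0.011 with quantile normalization.

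Because each inducible subunit takes the place of 1 standard subunit, the ratio within each pair was compared, which a scaling factor of a library moves only through the pseudocount. The log2 ratio of Psmb8 to Psmb5 was higher with DEX in 4 of 6 leukemias, by 0.10 ± 0.13 on average (SD, n = 6; exact two-sided sign-flip p = 0.1875). Psmb9 to Psmb6 was higher with DEX in 5 of 6, by 0.17 ± 0.24 (exact p = 0.15625). The ratio of Psmb10 to Psmb7 was lower in 5 of 6, at -0.25 ± 0.17, with leukemia 6 the exception (exact p = 0.0625). Adjusted over the 3 pairs, each p was 0.1875, and the smallest p that 6 leukemias allow is 0.03125. A single pair at that p would have had an adjusted p of 0.09375, so 1 pair alone could not have passed.

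As shares of the FPKM of a pair, Psmb8 held 68.4 ± 4.46% in VEH and 69.8 ± 4.85% in DEX. In the others, Psmb9 held 26.4 ± 3.34% and 28.7 ± 2.60%, and Psmb10 held 32.4 ± 3.66% and 28.6 ± 3.47% (SD, n = 6). The inducible subunit was thus the larger part of 1 pair in every library (62.8% to 77.2% for Psmb8) and the smaller part of the other 2 pairs.

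**Figure D4:**
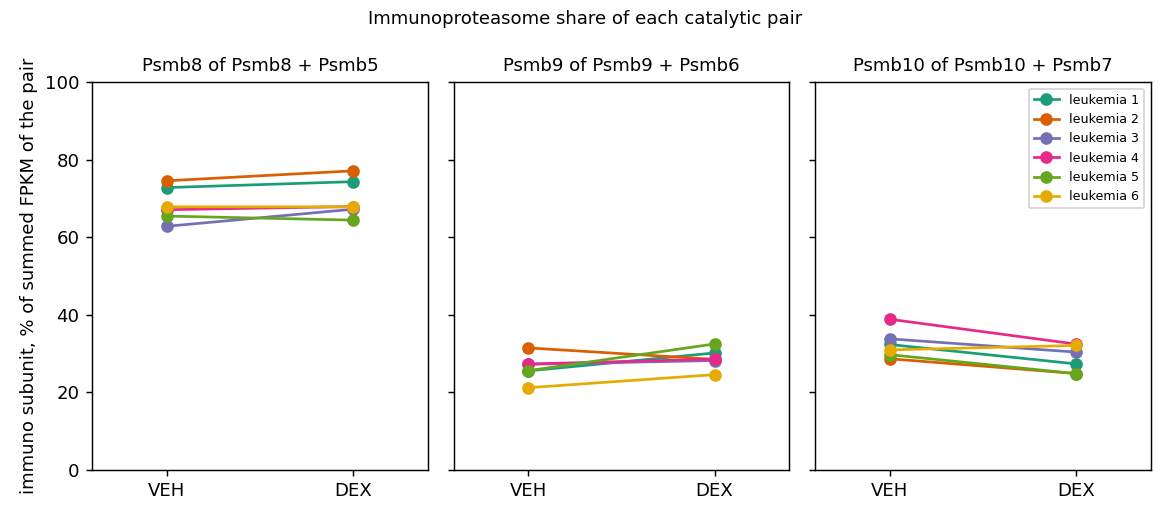
Share of the inducible subunit in the summed FPKM of each catalytic pair, in percent, with a line from VEH to DEX for each leukemia. Psmb8 lies between 62.8% and 77.2% in all libraries, and the share of Psmb10 goes down in 5 of 6 leukemias.

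Psmb8 and Psmb9 lie in the MHC region beside the peptide transporter genes Tap1 and Tap2, which deliver proteasome products to MHC class I. Tap2 rose, from 55.5, 66.5 and 94.7 FPKM in VEH to 71.1, 114 and 148 FPKM in DEX (lowest, median and highest), by 0.59 ± 0.08 (SE) and in 6 of 6 leukemias (adjusted p = 0.00384). Tap1 rose by 0.29 ± 0.07 (6 of 6 leukemias; adjusted p = 0.0258), a call lost without leukemia 1, 4, 5 or 6 (adjusted p = 0.051 to 0.084). Rescaled to TPM, Tap1 stood at 0.15 (adjusted p = 0.248), and without a filter on low values its adjusted p was 0.0583. Psmb8 lies 495 bases from Tap1 and 2072 bases from Tap2. Psmb9 and Tap1 overlap at their ends on opposite strands, and since the sources used here do not say whether counting used the strand, fragments there may be shared. Whether the Tap genes moved more than Psmb8 and Psmb9 was not tested.

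Of 10 antigen processing genes, 2 rose (Tap1 and Tap2), 1 fell and 7 did not pass, with a median of -0.12, against 4.27% higher and 9.28% lower over all genes tested. The 1 that fell was Erap1, a peptide-trimming aminopeptidase, at -0.24 (adjusted p = 0.0435), a call lost without leukemia 1, 2, 4, 5 or 6. The interferon-responsive factor Irf1 (-0.20, adjusted p = 0.343) did not pass.

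The remaining regulators lay on both sides of 0. Psmf1 encodes PI31, an inhibitor of the core in vitro, and went from 19.05 ± 3.36 to 22.2 ± 2.52 FPKM, higher in 5 of 6 leukemias (0.22, adjusted p = 0.108). Psme4, which encodes the activator PA200, differed by 0.00 (95% interval -0.16 to 0.16; adjusted p = 0.989). Psmc3ip and Psme2b, which are not proteasome subunits, stood at -0.30 (adjusted p = 0.109) and -0.02 (adjusted p = 0.960). Of the 5 genes that were too low to be tested, the testis core subunit Psma8 had 0.00 to 0.58 FPKM and the thymus epithelial subunit Psmb11 had 0.09 to 0.30 FPKM. The pseudogenes Psmb5-ps, Psmb6-ps and Psmb7-ps2 averaged at most 0.158 FPKM in a group.

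Outside the symbol rule, 31 genes of the pathway were tested (subunits without a Psm symbol, ubiquitin shuttles, deubiquitinases and transcription factors), of which 0 rose by limma's test, 3 fell and 28 did not pass, with a median of -0.12. Over all genes tested, 4.27% rose and 9.28% fell, and the share of pathway genes that fell was near the latter. At an unadjusted p under 0.05, 4 were higher and 9 lower, with no share of all genes counted at that threshold. The 3 that fell at the adjusted threshold were the ubiquitin shuttle factors Ubqln4 (-0.37, adjusted p = 0.0164) and Ubqln1 (-0.30, adjusted p = 0.0239) and Nfe2l2, the factor NRF2 that binds the ARE (-0.36, adjusted p = 0.0308). Ubqln4, named for the smallest p of the list, was 14.2 to 17.2 FPKM in VEH and 8.55 to 13.3 in DEX. The calls of Ubqln1 and Nfe2l2 were lost without leukemia 1, 2, 4 or 5, and that of Ubqln4 without leukemia 1 or 5. Nfe2l1, which encodes the factor that raises proteasome genes when the proteasome is inhibited, was lower in 6 of 6 leukemias at -0.35 (adjusted p = 0.0668). The cap subunits Adrm1 (0.05, adjusted p = 0.790) and Sem1 (0.03, adjusted p = 0.777) did not pass.

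Levels also differed between leukemias, at a share of genes near that of the whole table. By limma's F test on the leukemia terms, 25 of 48 proteasome genes (52.1%) differed between leukemias at an adjusted p under 0.05, against 51.1% of all genes tested. The count was 13 without leukemia 3, 10 without leukemia 5 and 16 without leukemia 6. Among tested genes with a role in the proteasome, the widest ranges of leukemia means were those of Psme4 (1.13 on the log2 scale), Psme2 (0.98), Psmb5 (0.92) and Psme1 (0.87). Psme2b had a wider one (2.498), at 0.13 to 7.70 FPKM.

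Psme4 ran from 30.4 FPKM in VEH of leukemia 3 to 72.6 FPKM in VEH of leukemia 2, with nearly the same levels in DEX (29.4 in leukemia 6 to 69.7 in leukemia 2; adjusted p between leukemias = 0.000475). Psmb5, which carries the chymotrypsin-like site, ran from 61.6 FPKM in VEH of leukemia 2 to 124 FPKM in VEH of leukemia 3 and in DEX of leukemia 4 (adjusted p between leukemias = 0.00141). For both genes, the leukemias that were high in VEH were high in DEX.

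Many proteasome genes were lowest in leukemia 5 or highest in leukemia 3. Of the 48 tested, 27 were lowest in leukemia 5, where 14.8% of all genes were lowest, and 21 were highest in leukemia 3, where 16.6% of all genes were highest. None was highest in leukemia 5, where 17.0% of all genes were highest. These genes are measured in the same libraries, so these counts are a description and no test was made.

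The genes on chromosome 14 followed another order, which was noticed after the values were seen. All 5 tested proteasome genes there (Psmd6, Psmc6, Psmb5, Psme1 and Psme2) were lowest in leukemia 2, and 4 were highest in leukemia 3 and 1, Psmb5, in leukemia 4. Of all 441 tested genes of chromosome 14, 25.4% were lowest in leukemia 2 and 48.98% in leukemia 6. The shares highest in leukemias 3, 4 and 5 were 31.97%, 19.5% and 35.6%. On other chromosomes, 5 of the 43 proteasome genes were lowest in leukemia 2, as were 12.96% of all tested genes there. No test was made of these counts. Relative to their own mean over leukemias, Psmb5 stood at -0.49 in leukemia 2 and 0.43 in leukemia 4, Psme1 at -0.48 and 0.33, and Psme2 at -0.57 and 0.27. Psmc6 was at -0.31 and 0.17, and Psmd6 at -0.30 and 0.11. Psmb5 lies at 54614119 to 54618022 and Psme1 at 55578123 to 55581529, with Psme2 beside it, while Psmd6 (14112174 to 14120984) and Psmc6 (45329788 to 45349705) lie far from them.

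Other genes of chromosome 14 moved with the leukemia as well. Over its 441 tested genes, the median deviation was -0.10, -0.26, 0.25, 0.23, 0.28 and -0.37 in leukemias 1 to 6, and its range, 0.65, was the widest of the 20 chromosomes examined. It was not alone, as the range was 0.56 on chromosome 15, which held 0 tested proteasome genes, and 0.49 on chromosome 1, which held Psmd1. Over all 12358 genes the medians ran only from -0.08 to 0.07. The median of chromosome 14 was below 0 in leukemia 2 and above 0 in leukemias 3 and 4, as were its proteasome genes. It was lowest in leukemia 6 and highest in leukemia 5, however, where the proteasome genes on it were not. In leukemias 6 and 5, Psmb5 stood at -0.07 and 0.03, Psme1 at -0.08 and 0.03, and Psme2 at -0.02 and -0.07. Psmc6 was at -0.19 and 0.15, and Psmd6 at -0.22 and 0.10. Whether these genes followed the chromosome was not tested.

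**Figure D5:**
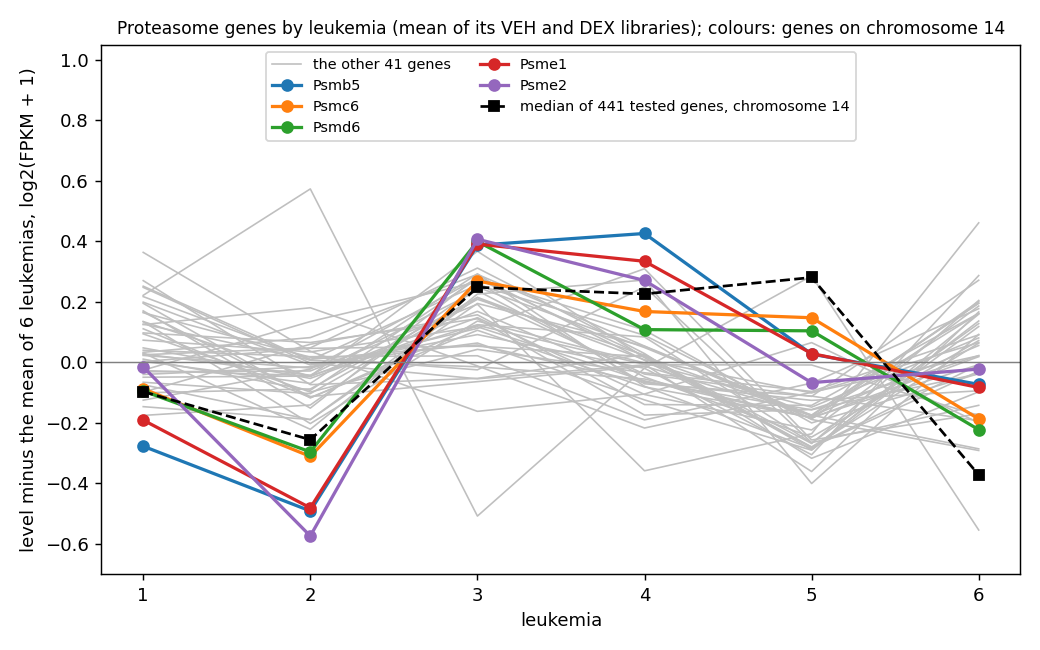
Level of each of the 46 tested genes with a role in the proteasome in leukemias 1 to 6 (mean of its VEH and DEX libraries), as log2(FPKM + 1) minus the mean of the gene over the leukemias; the 5 genes on chromosome 14 are coloured and the dashed line is the median of all 441 tested genes of that chromosome. The coloured lines are lowest in leukemia 2 and highest in leukemia 3 or 4, and many grey lines are lowest in leukemia 5.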

How the data were processed

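The authors deposited FPKM on a linear scale, with 2 decimals and no counts. Per the submitters' processing notes, the build was mm10 and the tools were Bowtie2 (version 2), RSEM and edgeR, with no roles given; the annotation and filters are not given in the sources used here. Per the labels, libraries were made from total RNA with a stranded kit. Groups came from the treatment label and pairs from the leukemia code in the titles. VEH and DEX libraries of a leukemia, after removal of group means, correlated across genes at 0.55 to 0.82, and those of different leukemias at -0.34 to 0.21.

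Genes with at least 1 FPKM in at least 6 of 12 libraries were tested as log2(FPKM + 1), without further scaling, in limma 3.58.1 (R 4.3.3): leukemia block and treatment, with trended eBayes (residual degrees of freedom 5, prior 3.995) and a two-sided threshold of 0.05 on Benjamini-Hochberg values over 12358 genes. Differences on this scale understate the change of low genes, and the code was tested on simulated data. Catalytic pairs were tested by all 64 sign flips. Coordinates came from GENCODE M21 (GRCm38), matched by identifier for 37607 of 38339 genes. Depth is only estimated, and no counting interval was used.

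The proteasome genes, their roles and all lists were chosen with earlier results of these data known. Named were the catalytic, activator, inhibitor and chaperone genes; in the rings, base and lid the 2 smallest and the largest p and any member opposite in sign to its group; up to 4 genes of the pathway and antigen lists by p; and the 5 widest ranges between leukemias. Some are given by count only. Paaf1, on the pathway list, was not analysed here. Lists of markers of the marrow's other cells gave, in summed FPKM over VEH and over DEX libraries, 108 to 619 and 39.6 to 377 for monocytes (6 of 6 reaching 1 FPKM), 11.2 to 83.8 and 13.7 to 54.3 for dendritic cells (5 of 6), 1.13 to 46.8 and 1.09 to 8.01 for B cells (5 of 6), 6.33 to 670 and 10.5 to 88.8 for erythroid cells (5 of 5), 3.48 to 8.95 and 2.68 to 5.63 for NK cells (2 of 3), and 45.9 to 56.2 and 30.4 to 52.1 for stroma and vessels (2 of 4). None of these markers was at 0 in all libraries. Alternatives changed the pseudocount, filter, scaling, block, variance model and the leukemias included.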

Additional observations from a re-analysis of the deposited data

Results flagged for a closer look

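Of 147 groups of 6 values examined, 11 held a value set apart from the other 5 by Dixon's criterion; chance flags about 5% of such groups. Leukemia 1 gave 5 of them. In VEH its library was high for Psme3 (75.69 FPKM, against 57.69 to 61.51 in the others), Psma3 (115.66, against 81.75 to 92.68), Psmd12 (64.87, against 45.31 to 51.81) and Erap1 (53.56, against 40.59 to 44.59), and in DEX it was high for Psmd11 (46.17, against 27.32 to 34.07). Without leukemia 1, Psme3 stood at -0.25 (adjusted p = 0.0751).

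Leukemia 3 was high in VEH for Psmb3 (176.27 FPKM, against 103.89 to 128.97) and Adrm1 (38.67, against 28.94 to 32.5), and in DEX for Nfe2l2 (26.08, against 18.81 to 21.49). Leukemia 2 was high in DEX for Psmd13 (83.1 FPKM, against 53.84 to 64.1), and its Psmd13 difference of 0.715962 on the log2 scale lay above 0.08 to 0.29 in the others. Leukemia 5 was low in VEH for Psmg2 (21.76 FPKM, against 26.39 to 28.55).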

How the results depend on the processing

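There were 18 alternatives. For the 49 named genes tested, 716 of 881 recomputed values kept their direction and side of the threshold, 90 lost a call, 10 gained one, 0 calls changed sign, and 65 values without a call changed sign, in 20 genes. The cause was not tested except where fewer leukemias, genes or degrees of freedom entered.

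Without the replicate block, which leaves out the pairing by leukemia, 35 genes were higher and 46 lower in place of 528 and 1147, and counts of proteasome genes lower (4), pathway genes lower (3), antigen genes higher (2) and lower (1) were 0, 0, 0 and 0. Genes higher numbered 181 without a filter, 268 rescaled to TPM, 188 in leukemias 2, 5 and 6 alone, 236 with the suffix term, and 233 to 532 with 1 leukemia left out. Genes lower numbered 370, 1844, 257, 282 and 425 to 1042, and 523 in leukemias 1, 3 and 4 alone.

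Proteasome genes higher numbered 1 in place of 0 with a filter in all libraries, with median-of-ratios scaling and with quantile normalization, and 0 to 1 with 1 leukemia left out. At 4 in the fit reported, those lower numbered 2 without a filter, 1 with median of ratios, 0 in leukemias 1, 3 and 4 or 2, 5 and 6 alone (the 2 subsets) or with the suffix term, and 0 to 3 with 1 left out. Those differing between leukemias (25) numbered 15 rescaled to TPM, 16 without trend, 10 and 9 in the subsets, and 10 to 30 with 1 left out. The gains were Psmd13 (adjusted p = 0.0467 with the filter, 0.0461 with quantiles), Psmb9 (0.0412 with median of ratios), and, lower with TPM, Psmd7 (0.0260) and Psmb10 (0.0318).

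Pathway genes lower numbered 0 without a filter, 6 rescaled to TPM, 1 and 0 in the subsets, 0 with the suffix term, and 0 to 4 with 1 leukemia left out. Antigen genes higher numbered 1 without a filter, with TPM, in each subset and with the suffix term, and 1 to 2 with 1 left out; those lower numbered 0 without a filter, with median of ratios, with quantiles, without trend, in each subset and with the suffix term, and 0 to 2 with 1 left out.

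Rescaled to TPM, the median differences were -0.12 (alpha ring), -0.089 (standard beta ring), -0.10 (core), -0.10 (base ATPases), -0.065 (other base subunits), -0.12 (lid), -0.11 (cap), -0.035 (immunoproteasome; -0.011 with quantiles), -0.21 (base chaperones), -0.32 (core chaperones) and -0.39 (PA28). The medians moved by less than their SD over leukemias elsewhere, as did the catalytic ratios in every setting. Depth per gene is unknown, which limits statements on the genes under 1 FPKM.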
